A study of Mus musculus with 22 samples.

Results

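The complement system of CD11b+ brain cells was followed through 9 genes, C1qa, C1qb, C1qc, C3, C4b, Itgam, Itgb2, C3ar1 and C5ar1, out of 56691 genes in the deposited tables. The genes form a named list of complement components and receptors, chosen with earlier results of these data known, the difference of C4b on P14 among them. All 9 were found in both tables and passed the filter on low counts in every comparison. RNA had been sequenced from cells of whole brains of outbred CF-1 wildtype mice, enriched on magnetic beads against CD11b, in 22 libraries from 20 animals. In the HIE group, which models neonatal hypoxic-ischemic encephalopathy, the dam received 50 µg/kg lipopolysaccharide (LPS) on embryonic day 18 (E18) and the pup 8 min of hypoxia on postnatal day 6 (P6), whereas control dams received saline and control pups normoxia. P7 had 4 HIE pups and 4 controls, P14 had 4 animals each of HIE, Control and Hypoxia, and the sources used here do not say whether the dams of the Hypoxia animals received LPS. Each group held 2 litters, as read from the animal names, with 2 animals of each, and no litter was in more than 1 group, so that litter and treatment cannot be told apart. The 4 P7 HIE pups were males, and every other group had 2 males and 2 females. The day labels of the P7 controls were P8 and P9 in litter P6H63 and P10 and P11 in litter P6H55, 1 pup each. The protocol label and the study give P7 for these controls, and the P7 HIE pups were labelled P7. P7 and P14 libraries were deposited in separate tables, so day and table cannot be told apart.

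Complement is a cascade of plasma and tissue proteins that tags material for uptake by phagocytes. C1q, built from chains A, B and C, is the recognition part of the classical pathway. It leads to cleavage of C4 and then of C3, whose fragments bind to surfaces, and the small fragments of C3 and C5 act on receptors of their own. In the brain C1q is made largely by microglia, and complement receptor 3 (CR3), the pair of Itgam and Itgb2, takes up material tagged by C3 fragments, including synapses during development. Itgam encodes CD11b, the protein by which the cells were enriched.

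The 3 genes of C1q lie side by side on the minus strand of chromosome 4 of GRCm39, C1qb at 136606009 to 136613511, C1qc at 136616466 to 136620376 and C1qa at 136623223 to 136626161, while C4b lies on the minus strand of chromosome 17 at 34947354 to 34962912. The 250 bases before the start of each gene's canonical transcript in GENCODE are shown because the C1q genes varied together and C4b did not follow them. Capitals mark the motif matches in each window on either strand.
C1qa, chr4:136626162-136626411: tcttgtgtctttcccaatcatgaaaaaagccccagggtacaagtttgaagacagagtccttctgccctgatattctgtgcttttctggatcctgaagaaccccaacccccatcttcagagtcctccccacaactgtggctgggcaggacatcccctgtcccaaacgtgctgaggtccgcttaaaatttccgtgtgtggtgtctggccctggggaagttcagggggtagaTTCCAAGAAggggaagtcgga
C1qc, chr4:136620377-136620626: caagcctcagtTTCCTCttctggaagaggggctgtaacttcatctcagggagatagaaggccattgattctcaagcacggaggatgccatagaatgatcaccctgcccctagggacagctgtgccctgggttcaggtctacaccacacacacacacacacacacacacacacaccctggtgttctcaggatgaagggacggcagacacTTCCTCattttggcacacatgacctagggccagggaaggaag
C1qb, chr4:136613512-136613761: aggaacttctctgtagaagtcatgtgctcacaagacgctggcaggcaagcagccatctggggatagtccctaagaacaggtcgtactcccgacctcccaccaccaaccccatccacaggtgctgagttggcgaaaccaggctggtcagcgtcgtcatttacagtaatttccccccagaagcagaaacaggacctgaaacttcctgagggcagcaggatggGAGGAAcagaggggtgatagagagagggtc
C4b, chr17:34962913-34963162: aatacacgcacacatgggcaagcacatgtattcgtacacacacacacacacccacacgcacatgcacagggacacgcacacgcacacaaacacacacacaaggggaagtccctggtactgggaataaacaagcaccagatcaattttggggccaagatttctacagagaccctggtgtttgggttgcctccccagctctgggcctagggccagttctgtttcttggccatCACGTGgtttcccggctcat
The windows were searched on both strands for GAGGAA, which occurs in sites for PU.1 and other ETS factors, and for the STAT-type palindrome TTCNNNGAA. The E-box CACGTG and the TATA box TATAAA were searched in the same way, and no matches overlapped. Only these patterns were searched, so a window without a match can hold other forms of such sites. GAGGAA was found at 2 places in the C1qc window, both on the opposite strand, and once in the C1qb window at -30 to -25 from the start. TTCNNNGAA was found once in the C1qa window at -21 to -13 and CACGTG once in the C4b window at -20 to -15, and no searched motif was shared by all 3 C1q windows. Of 21770 windows of the same length before protein-coding genes, 22.9% held GAGGAA, 7.7% TTCNNNGAA, 6.3% CACGTG and 11.9% TATAAA. GC content was 52.4% for C1qa, 53.6% for C1qc, 55.2% for C1qb and 53.2% for C4b.

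Total counts per library were 70191541 to 83469037 on P7 and 29751486 to 46404071 on P14. Levels are given as CPM, counts scaled to a common library size with TMM factors over the 20 animals. At these levels every value of a member rested on far more than 3 counts. Microglia markers, of which Csf1r, Cx3cr1 and P2ry12 were the most abundant, summed to 15496 to 17623 CPM in P7 HIE and to 15814 to 26414 CPM in the 12 P14 animals, but to only 1968 and 1251 CPM in the P7 controls of litter P6H63, against 13817 and 11969 CPM in those of litter P6H55. The P6H63 pups also had 2137 and 2289 CPM of fibroblast markers, against 512 to 707 CPM in the other 6 P7 pups, and 17.5 and 20.6 CPM of neutrophil markers. Their endothelial markers summed to 2752 and 2264 CPM, against 846 to 1184 CPM in the other 6. Astrocyte markers summed to 2343 and 3019 CPM against 813 to 1309 CPM, and neuron markers to 435 and 612 CPM against 183 to 285 CPM. The values of the members in comparisons with P7 controls are given with all 4 controls and with the P6H55 controls alone. The P6H55 controls are the pups labelled P10 and P11, and the P6H63 controls those labelled P8 and P9. Litter, labelled day and marker levels of the controls therefore cannot be told apart. Fits with either control litter alone rest on 2 littermates. In bulk RNA, fewer cells of a type cannot be told apart from less RNA per cell.

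Per length of transcript, C1qa was the most abundant member in every group and C3 the least. On P14 controls averaged 1221 CPM per kb for C1qa, 527 for C1qc, 299.5 for C1qb, 348 for Itgam, 53.6 for Itgb2, 27.8 for C3ar1, 15.5 for C5ar1, 9.78 for C4b and 1.37 for C3. The order of neighbouring genes was not tested. The plot of CPM by animal shows all 9 genes, with the P6H63 pups below every other animal for the C1q, integrin and receptor genes and above every other animal for C4b.

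**Figure D1:**
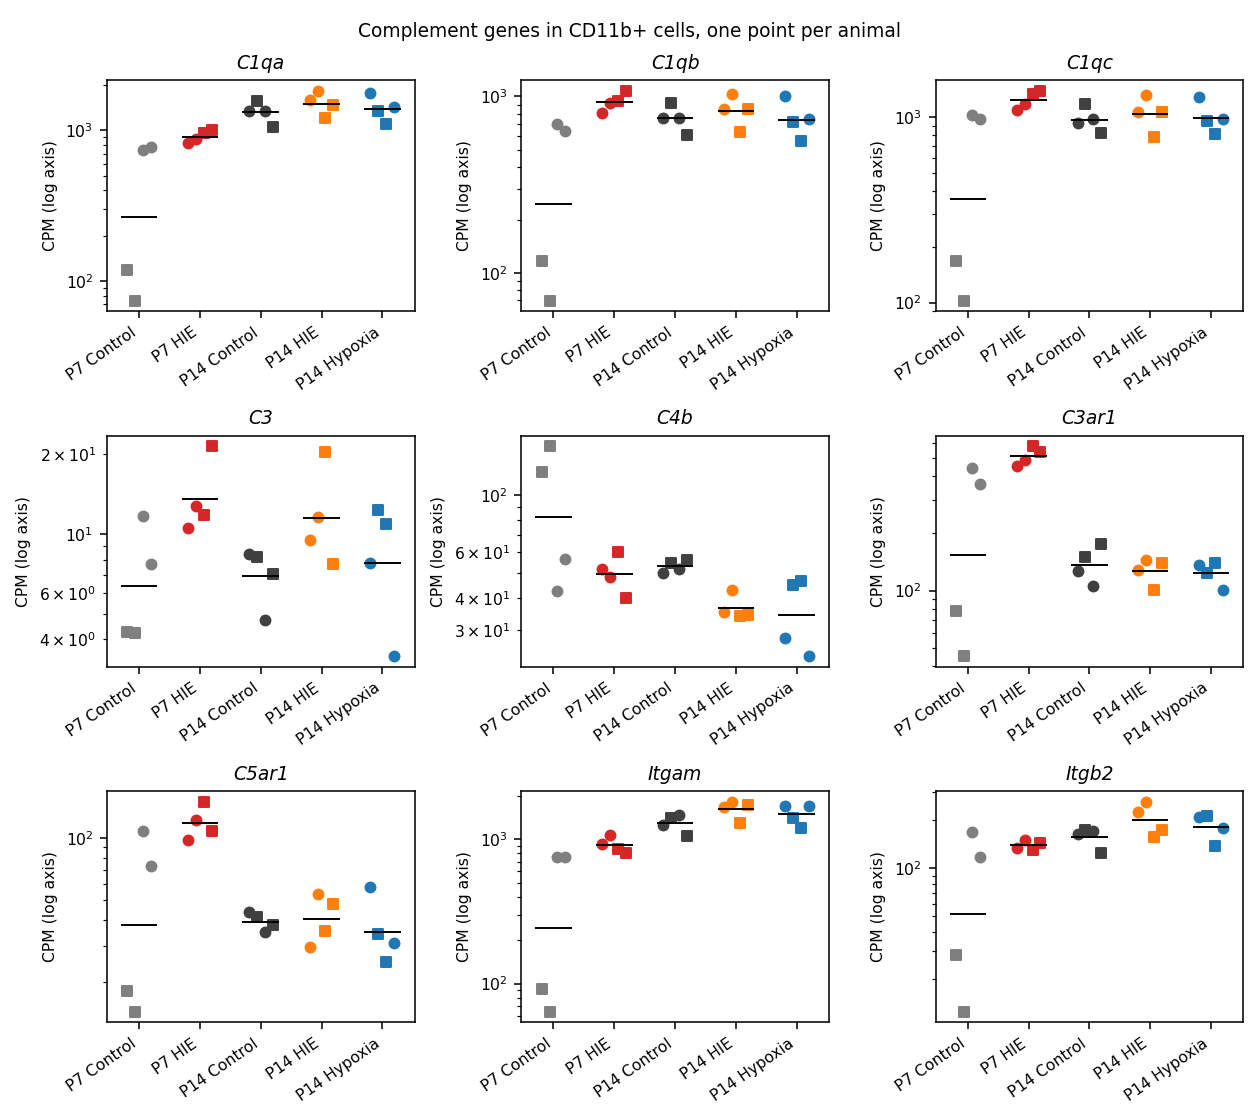
CPM of the 9 complement genes (vertical log axes) in the 5 groups, with 1 point per animal, circles and squares for the 2 litters of a group and a line at the mean of the log2 values. For C1qa in P7 controls the P6H63 pups sit at 119 and 73.9 CPM and the P6H55 pups at 737 and 772 CPM.

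C1q, the recognition part of the classical pathway, did not pass the test between HIE and control animals on either day. On P14 the level of C1qa was 1352, 1347, 1562 and 1046 CPM in controls, 1576, 1829, 1198 and 1482 CPM in HIE and 1764, 1432, 1349 and 1101 CPM in Hypoxia animals. The ranges of the 3 groups overlapped. The mean of C1qb was 758 ± 127 CPM (SD, n = 4) in controls and 840.2 ± 167 CPM (SD, n = 4) in HIE, and that of C1qc was 977 ± 149 and 1061 ± 219 CPM. The log2 fold changes between HIE and controls were 0.17 for C1qa (SE 0.16, 95% interval -0.18 to 0.53), 0.12 for C1qb (-0.24 to 0.49) and 0.09 for C1qc (-0.27 to 0.46), with adjusted p of 0.807, 0.886 and 0.917 (edgeR's quasi-likelihood test, Benjamini-Hochberg). Between Hypoxia and controls the change of C1qa was 0.06 (95% interval -0.31 to 0.43, adjusted p = 0.936 by the same test). The intervals leave room for changes in either direction.

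On P7 the level of C1qa was 822, 869, 956 and 1000.5 CPM in HIE pups, 119 and 73.9 CPM in P6H63 controls and 737 and 772 CPM in P6H55 controls. All HIE pups were above all controls, and the spread between the control litters was larger than the distance from the nearer litter to the HIE pups. The log2 fold changes were 1.08 for C1qa (SE 0.71, adjusted p = 0.320), 1.28 for C1qb (SE 0.69, adjusted p = 0.247) and 1.12 for C1qc (SE 0.70, adjusted p = 0.298) by edgeR's quasi-likelihood test. Against the P6H55 controls alone they were 0.26 for C1qa (adjusted p = 0.274), 0.47 for C1qb (0.204) and 0.31 for C1qc (0.264) in the same test. With the microglia score as a covariate the change of C1qa was -0.06. The score is the mean log2 CPM of 15 microglia markers, and the mean log2 CPM of the 3 C1q genes lay 0.45 to 1.06 above it in every one of the 20 animals, including the P6H63 pups. The plot of C1qa against this score shows the points in a rising band, while C3ar1 splits by day and C4b is highest where the score is lowest.

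**Figure D2:**
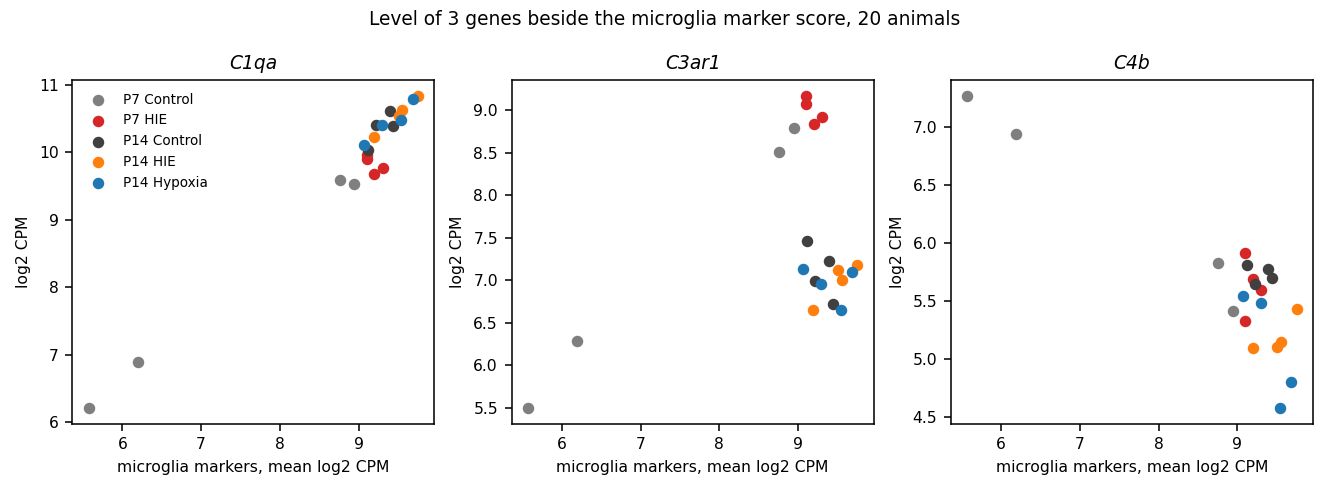
Level of C1qa, C3ar1 and C4b (log2 CPM, vertical) against the mean log2 CPM of 15 microglia markers (horizontal) in 20 animals coloured by group. The P6H63 pups, at scores of 6.19 and 5.57, are low for C1qa and C3ar1 and high for C4b.

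The 3 C1q genes differed in their proportions between the days. The ratio of C1qa to C1qb CPM was 0.93 to 1.22 in the 8 P7 pups and 1.71 to 1.98 in the 12 P14 animals. The ranges did not overlap. Within P7 the ratio was 0.93 to 1.02 in HIE pups and 1.02 to 1.22 in controls, and the P14 groups overlapped. The ratio of C1qc to C1qb was 1.29 to 1.54 on P7 and 1.22 to 1.46 on P14, and these ranges overlapped. Between P14 and P7 controls C1qa rose by 1.64 on the log2 scale (SE 0.54, adjusted p = 0.0225), while C1qb gave 1.00 (adjusted p = 0.128) and C1qc 0.78 (adjusted p = 0.232) in edgeR's quasi-likelihood test. Without the control P6H63-7 the change of C1qa was 1.33 (adjusted p = 0.0503). With the P6H55 controls alone C1qa rose by 0.84 (adjusted p = 0.00226), while C1qb gave 0.20 (0.411) and C1qc -0.01 (0.958) in edgeR's quasi-likelihood test. Between P14 HIE and P7 HIE animals the values were 0.74 for C1qa (adjusted p = 0.306), -0.15 for C1qb (0.850) and -0.24 for C1qc (0.763) in the same test.

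C4b, which carries the cascade from C1q to C3, lay lower in every P14 HIE animal than in every control, which the C1q genes did not. Its level was 50, 51.8, 54.7 and 56.2 CPM in the 4 controls and 35.4, 43.1, 34.1 and 34.3 CPM in the 4 HIE animals. The 2 sets of values did not overlap. The log2 fold change was -0.56 (SE 0.10, 95% interval -0.77 to -0.34), with an adjusted p of 0.222 in edgeR's quasi-likelihood test, which therefore did not call it. C4b ranked 10 of 20934 genes by p. It was called by DESeq2 (adjusted p = 0.000196) and by edgeR's exact test (adjusted p = 0.00847). Leaving out each animal in turn gave changes of -0.63 to -0.52. Both litters with names in P4H and both in P6H went the same way, with a mean of 39.3 CPM in HIE and 50.9 CPM in controls for P4H and of 34.2 and 55.4 CPM for P6H. C4b was listed with this difference already known. Its rank, the calls, the fits without an animal and the litter means come from the same values and are not independent support.

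The Hypoxia animals divided by litter. C4b was at 27.9 and 23.8 CPM in the P6H7 animals and at 44.7 and 46.6 CPM in the P6H9 animals, all below the lowest control. The log2 fold change against the same 4 controls was -0.59 (SE 0.21, 95% interval -1.07 to -0.11, adjusted p = 0.484, edgeR's quasi-likelihood test). In a split by litter chosen after the data were seen, it was -1.09 with the P6H7 animals alone (adjusted p = 0.0148) and -0.21 with the P6H9 animals alone (adjusted p = 0.999) by the same test. Each of these fits rests on 2 littermates, so its p-value speaks for that litter and not for the Hypoxia group. HIE and Hypoxia animals differed by 0.02 (95% interval -0.44 to 0.48, adjusted p = 1 in edgeR's quasi-likelihood test), and both comparisons with controls share those controls. The plot of P14 values relative to controls puts C4b beside the other members.

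**Figure D3:**
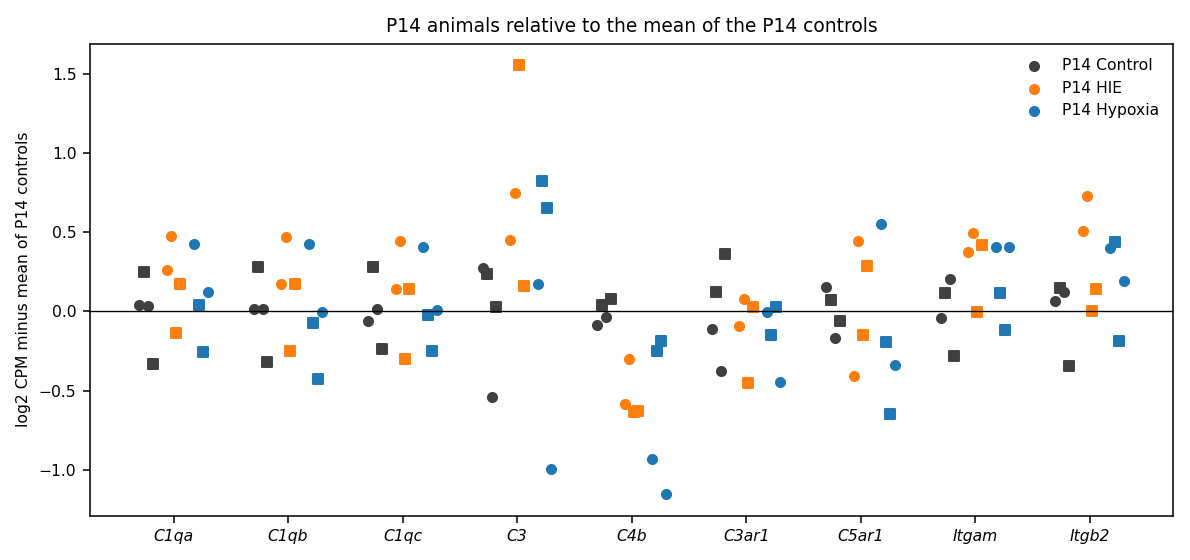
Difference of each P14 animal's log2 CPM from the mean of the 4 P14 controls (vertical) for the 9 genes, coloured by group, with circles and squares for the 2 litters of a group. For C4b all HIE and Hypoxia points lie below all control points, at 23.8 to 46.6 CPM against 50 to 56.2 CPM, and for the 3 C1q genes the groups overlap.

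Markers of other cells differed beside C4b. The 10 neuron markers, of which Map2, Elavl3 and Stmn2 were the most abundant over the 20 animals, summed to 297 to 544 CPM in P14 controls, 198 to 287 CPM in HIE and 205 to 374 CPM in Hypoxia animals, so that HIE and controls did not overlap here either. The P6H7 animals, lowest for C4b, had 205 and 211 CPM of these markers, and the P6H9 animals 374 and 314 CPM. The controls P4H4-8M, P6H8-7M and P4H4-7F had the highest sums of these markers among the P14 animals, 544, 542 and 428 CPM. Their C4b was at 50, 56.2 and 51.8 CPM. Some pairs of animals were in the opposite order. The HIE animal P4H1-6F had 198 CPM of neuron markers and 43.1 CPM of C4b, and P4H1-1M had 287 and 35.4 CPM. P6H9-14M was above the control P6H8-8F in neuron markers (374 and 297 CPM) but below it in C4b (44.7 and 54.7 CPM). Astrocyte markers (Slc1a2, Aqp4, Gja1) summed to 1049 to 2343 CPM in controls and 910.2 to 1715 CPM in HIE, and oligodendrocyte markers (Mbp, Mag, Olig1) to 501 to 2050 CPM and 369 to 859 CPM, and both overlapped. None of the neuron, astrocyte or oligodendrocyte markers was at 0 in a group. Over the 12 P14 animals, which share these differences in marker levels, the genes most like C4b among 14136 protein-coding genes were Pnck (Pearson r of log2 CPM 0.93), Stmn3 (0.91), Gfra4 (0.90), Tmem59l (0.90) and Eomes (0.90). The part of other cells in the C4b difference was not tested.

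**Figure D4:**
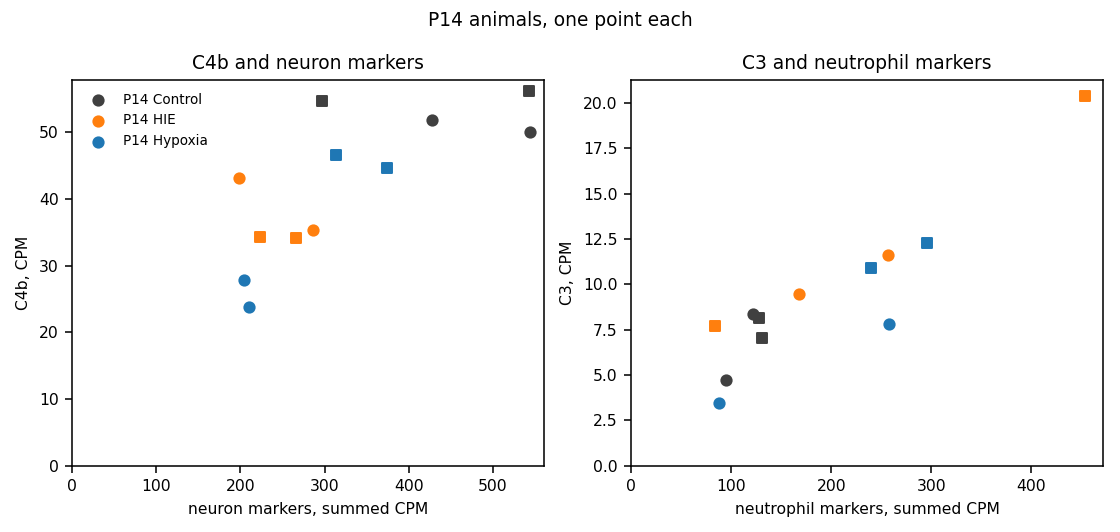
Left, C4b (CPM) against the summed CPM of 10 neuron markers. Right, C3 (CPM) against the summed CPM of 9 neutrophil markers, each with 1 point per P14 animal coloured by group and circles and squares for the litters. The 4 control animals have the highest C4b levels, 50 to 56.2 CPM, and the HIE animal at 453 CPM of neutrophil markers has the highest C3 level, 20.4 CPM.

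C4a, the near-identical copy of C4b, was at 0.84 to 2.91 CPM in the 20 animals. C4b held 93.2 to 98.4% of the summed counts of both genes in an animal, and RSEM had divided reads that match both, so their division is uncertain. The change of C4a between HIE and controls was -0.44 on P14 (adjusted p = 0.680) and -0.71 on P7 (adjusted p = 0.150) in edgeR's quasi-likelihood test. The sum of both genes, an alternative chosen after the data were seen, changed by -0.55 on P14 (adjusted p = 0.222).

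On P7 C4b followed the control litters. Its level was 122 and 154 CPM in P6H63 controls, 42.7 and 56.6 CPM in P6H55 controls and 51.7, 48.3, 60.2 and 40.1 CPM in HIE pups, so that the HIE pups spanned the P6H55 controls. The log2 fold change was -0.92 (SE 0.39, adjusted p = 0.177, edgeR's quasi-likelihood test) against all controls, 0.00 against P6H55 alone (adjusted p = 0.997) and -1.43 against P6H63 alone (adjusted p = 0.000161). Between the days C4b fell by 0.82 in controls (SE 0.29, adjusted p = 0.0336), but with the P6H55 controls alone the change was 0.12 (adjusted p = 0.570). The call was also lost without any 1 of the 4 P14 controls or of the P6H63 controls, with changes of -0.82 to -0.48. In HIE animals the difference between days was -0.44 (adjusted p = 0.264). The P14 HIE effect minus the P7 HIE effect was 0.37 for C4b (95% interval -0.51 to 1.25, adjusted p = 0.7, edgeR's quasi-likelihood test) and -0.56 with the P6H55 controls alone (adjusted p = 0.437).

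C3, the central component of all pathways, was a low gene here. On each day most but not all HIE animals lay above every control, and the test was not passed. On P14 it was at 8.36, 4.75, 8.15 and 7.04 CPM in controls, 9.48, 11.6, 20.4 and 7.71 CPM in HIE and 7.79, 3.45, 12.3 and 10.9 CPM in Hypoxia animals. The HIE animal P6H12-14F was well above the rest, and the HIE and control ranges overlapped. The log2 fold change of HIE against controls was 0.77 (SE 0.31, 95% interval 0.09 to 1.46, adjusted p = 0.425, edgeR's quasi-likelihood test). That of Hypoxia against controls was 0.26 (adjusted p = 0.852) and that of HIE against Hypoxia 0.50 (adjusted p = 1) by the same test. On P7 it was at 10.5, 12.7, 11.8 and 21.4 CPM in HIE pups, 4.25 and 4.24 CPM in P6H63 and 11.7 and 7.71 CPM in P6H55 controls. The change was 1.00 (SE 0.38, 95% interval 0.12 to 1.88, adjusted p = 0.160, edgeR's quasi-likelihood test), and the ranges overlapped through 1 P6H55 control. Against the P6H55 controls alone it was 0.53 (adjusted p = 0.424, edgeR's quasi-likelihood test).

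Neutrophil markers, of which S100a9, Ngp and S100a8 were the most abundant over the 20 animals, varied beside C3. They summed to 94.4 to 131 CPM in P14 controls, 83.9 to 453 CPM in HIE and 87.8 to 296 CPM in Hypoxia animals, and P6H12-14F had the 453 CPM. Monocyte markers (Vcan, Ccr2, Plac8) summed to 76.5 to 105 CPM in controls and 67.5 to 104 CPM in HIE. The genes most like C3 over the 12 P14 animals were Hp (Pearson r 0.93), Tdp2 (0.91), Nfe2 (0.91), Fpr2 (0.90) and Ltf (0.88), and Hp and Ltf are among the listed monocyte and neutrophil markers. For C1qa they included C1qb (0.98), Tcn2 (0.97), Nagpa (0.97) and C1qc (0.96). The part of neutrophils in the C3 values was not tested.

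The CR3 integrin genes did not pass the test between HIE and controls on either day. Itgam was at 1256, 1489, 1404 and 1064 CPM in controls and 1678, 1820, 1291 and 1727 CPM in HIE. Itgb2 was at 124 to 175 CPM in controls and 158 to 261 CPM in HIE, and both genes overlapped. Their log2 fold changes were 0.30 (95% interval -0.03 to 0.62, adjusted p = 0.555) and 0.34 (-0.03 to 0.71, adjusted p = 0.561) by edgeR's quasi-likelihood test. Microglia markers summed to 16205 to 20939 CPM in these controls and 17399 to 26414 CPM in HIE. On P7 the changes were 1.11 for Itgam (adjusted p = 0.341) and 0.76 for Itgb2 (adjusted p = 0.466), with P6H63 controls at 92.2 and 63.6 CPM of Itgam and the 6 other P7 pups at 759 to 1072 CPM. Against the P6H55 controls alone the changes were 0.26 (adjusted p = 0.330) and -0.05 (adjusted p = 0.904) by the same test. The cells were chosen with beads against CD11b, and the part of that enrichment in the Itgam level was not tested.

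Between the days Itgam rose in controls by 1.64 (SE 0.58, adjusted p = 0.0316), a call lost without P6H8-8F, P4H4-7F or P6H63-7 (1.3 to 1.61), while it differed by 0.83 in HIE animals (adjusted p = 0.285, edgeR's quasi-likelihood test). Itgb2 gave 0.97 (adjusted p = 0.145) and 0.56 (adjusted p = 0.444). With the P6H55 controls alone Itgam rose by 0.80 in controls (adjusted p = 0.00222) and Itgb2 gave 0.18 (adjusted p = 0.517) in the same test. The ratio of Itgam to Itgb2 was 3.26 to 6.49 in P7 controls, 5.61 to 7.14 in P7 HIE and 6.55 to 9.94 over the P14 animals.

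The receptors for the small fragments were the 2 members that passed the test between the days in HIE animals. C3ar1, the receptor for C3a, was at 456, 485, 575 and 537 CPM in P7 HIE and at 128.5, 145, 100.2 and 139.5 CPM in P14 HIE. C5ar1, the receptor for C5a, was at 97.1, 121, 149 and 108 CPM in P7 HIE and at 29.5, 53.4, 35.5 and 48.0 CPM in P14 HIE. No P14 HIE animal reached the P7 HIE range of either gene. C3ar1 fell by 2.0 on the log2 scale (SE 0.51, adjusted p = 0.00765) and C5ar1 fell by 1.51 (SE 0.47, adjusted p = 0.0225) in edgeR's quasi-likelihood test. The call of C5ar1 was lost without P4H1-1M, P6H12-14F or N8-3 (-1.44 to -1.37). The microglia marker sums of these groups were 15496 to 17623 CPM and 17399 to 26414 CPM. Border macrophage markers summed to 4623 to 7774 CPM in P7 HIE and to 2921 to 4413 CPM in P14 HIE, without overlap. Their mean log2 CPM, 7.795 to 8.631 and 7.358 to 7.929, did overlap. Of these markers Dab2 (-1.75, adjusted p = 0.00224) and Pf4 (-1.41, adjusted p = 0.044) passed edgeR's quasi-likelihood test, while Cd163 (0.32) and Cbr2 (0.22) went the other way. The part of these cells in the change of the receptors was not tested.

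In controls the same step depended on the litter. C3ar1 was at 442 and 363 CPM in the P6H55 controls, 78.2 and 45.0 CPM in the P6H63 controls and 106 to 176 CPM in P14 controls, and its change was -0.73 (adjusted p = 0.241). C5ar1 was at 108 and 73.1 CPM, 18.2 and 14.4 CPM and 35 to 43.6 CPM, and its change was -0.43 (adjusted p = 0.461). Against the P6H55 controls alone the changes were -1.51 (adjusted p = 2.19e-05) and -1.18 (adjusted p = 0.000864), and against the P6H63 controls alone 1.19 (adjusted p = 0.00059) and 1.28 (adjusted p = 0.000255), all by edgeR's quasi-likelihood test. The P14 HIE effect minus the P7 HIE effect was -1.27 for C3ar1 (95% interval -2.77 to 0.23, adjusted p = 0.435) and -0.48 with the P6H55 controls alone (adjusted p = 0.593).

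Between HIE and controls neither receptor passed the test. On P14 the log2 fold changes were -0.15 for C3ar1 (95% interval -0.51 to 0.22, adjusted p = 0.852) and 0.05 for C5ar1 (-0.33 to 0.43, adjusted p = 0.956). On P7 they were 1.13 for C3ar1 (adjusted p = 0.275) and 1.14 for C5ar1 (adjusted p = 0.243) by edgeR's quasi-likelihood test, and against the P6H55 controls alone 0.34 (adjusted p = 0.263) and 0.39 (adjusted p = 0.377). All P7 HIE pups were above all controls for C3ar1, whereas 1 P6H55 control reached the HIE range of C5ar1. The ratio of C3ar1 to C5ar1 was 2.37 to 5.60 over all animals.

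**Figure D5:**
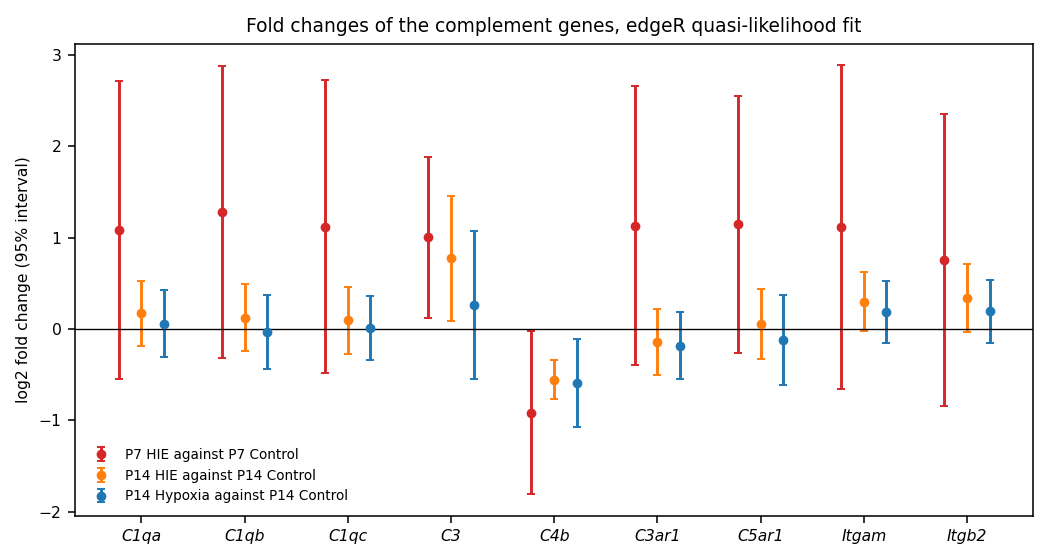
Log2 fold changes (vertical) of the 9 genes with 95% intervals from edgeR's quasi-likelihood fit, for P7 HIE and P14 HIE against the controls of the day and for P14 Hypoxia against P14 controls. The P14 HIE interval of C4b, -0.77 to -0.34, lies below 0, and the P7 intervals are the widest, such as -0.55 to 2.72 for C1qa.

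Counted together, 0 of 9 members passed an adjusted p under 0.05 between P7 HIE and controls, where 0.0666% of all tested genes did (edgeR's quasi-likelihood test). At an unadjusted p under 0.05 there were 2, C3 and C4b, against 27.3% of all genes, and DESeq2 called 0 members and 13.4% of all genes. In 5 members (C1qa, C1qb, C1qc, Itgam and C3ar1) every HIE pup was above every control, against 9.22% of all genes, and in 0 every HIE pup was below, against 7.85%. Every HIE pup was also above every control for the microglia markers Csf1r (log2 fold change 1.21), Cx3cr1 (1.18) and P2ry12 (1.11). The same held for all of the 15 microglia markers except Aif1, Tmem119, Siglech and Hpgds. With P6H55 controls alone 0 members were called (0.112% of all genes), and with P6H63 controls alone all 9 (58.5%). Without the control P6H55-7 there were 2, C3 (1.39, adjusted p = 0.0359) and C4b (-1.13, adjusted p = 0.0416), against 24.2% of all genes. The median log2 fold change was 1.11 over the members and -0.08 over all genes.

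On P14, 0 of 9 members passed between HIE and controls, against 0.00478% of all genes. Unadjusted, 2 did (C3 and C4b), against 9.87%. DESeq2 called 1 member, C4b, and 2.34% of all genes, and edgeR's exact test called the same member and 1.13%. In 1 member, C4b, HIE lay wholly below controls, against 2.67% of all genes, and in 0 wholly above, against 2.82%. The median was 0.12 over the members and 0.01 over all genes. Between Hypoxia and controls 0 members passed (0.00955% of all genes) and 1 did unadjusted (9.53%), DESeq2 called 0, 1 lay wholly below (2.54%) and 0 wholly above (2.67%), with medians of 0.01 and -0.01. Between HIE and Hypoxia 0 passed, against 0.00955% of all genes, 0 did unadjusted (4.53%), and DESeq2 called 0.

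Between P14 and P7 controls 3 of 9 members passed, C1qa and Itgam higher and C4b lower, against 45.8% of all genes. Between P14 and P7 HIE animals 2 of 9 passed, both lower, against 33.5%. These shares were below those of all genes. In the test of the P14 HIE effect against the P7 HIE effect 0 members passed (0.00405% of all genes), 0 did unadjusted (13.9%) and DESeq2 called 0.

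Of 47 other complement genes in 4 lists, 35 were tested between P7 HIE and controls and 0 passed. Among genes with a mean of 1 CPM or more, here and in the comparisons that follow, the changes of largest size were 2.12 for Itgax, which encodes the alpha chain of complement receptor 4 (171 CPM in HIE and 39 CPM in controls, adjusted p = 0.150), -1.84 for C1s1, a protease of the C1 complex, and -1.36 for Serping1, the C1 inhibitor. Against the P6H55 controls alone, an alternative added for these genes after the data were seen, these were 1.56 (adjusted p = 0.128), -0.78 (0.455) and -0.30 (0.287) in edgeR's quasi-likelihood test, and 0 of 37 passed. Between P14 HIE and controls 35 were tested and 0 passed, with -0.92 for Sez6 (adjusted p = 0.280), -0.66 for Csmd2 and -0.62 for Csmd1, whose proteins carry the sushi domains common in complement regulators. In this comparison the neuron markers Map2, Elavl3 and Stmn2 changed by -0.85, -0.999 and -0.76, also without passing. The part of neurons in the values of Sez6, Csmd2 and Csmd1 was not tested. Between Hypoxia and controls 0 of 34 passed, with -0.83 for Clu, -0.78 for Itgax and -0.73 for Sez6. Between HIE and Hypoxia 0 of 35 passed, with 1.13 for Itgax (27.7 and 12.5 CPM, adjusted p = 0.387), 0.68 for Clu and -0.65 for Fcna (all by edgeR's quasi-likelihood test).

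Between P14 and P7 controls, all 4 P7 pups included, 5 of 37 were higher and 10 lower on P14, where 45.8% of all genes passed. Among them were Csmd3 (3.90) and Csmd2 (0.86), which rose, and C1qbp (-1.24), Cd93 (-1.27) and Hc (-1.64), the gene of C5, which fell. With the P6H55 controls alone 6 of 39 were higher and 3 lower, where 34.1% of all genes passed, and C1qbp gave -1.46 (adjusted p = 1.15e-06), Cd93 -0.68 (0.00805) and Hc -0.52 (0.404) in edgeR's quasi-likelihood test. In HIE animals 3 were higher and 4 lower, where 33.5% of all genes passed, with Csmd3 (3.72) and Susd4 (0.95) higher and C1qbp (-1.34), Itgax (-2.62) and Cfb (-1.17), which encodes factor B, lower, while C2 gave -1.36 (adjusted p = 0.0856), Cd93 -0.01 (0.989) and Hc 0.02 (0.979) in edgeR's quasi-likelihood test.

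The remaining marker lists gave the following sums in the P14 controls and HIE animals. Endothelial markers (Slc2a1, Kdr, Flt1) were at 721 to 1135 CPM and 1065 to 1652 CPM, fibroblast markers (Col1a2, Col3a1, Col1a1) at 427 to 595 CPM and 559 to 737 CPM, choroid plexus markers (Ttr, Clic6, Kl) at 1097 to 3879 CPM and 1845 to 4893 CPM, and border macrophage markers (Stab1, Mrc1, Dab2) at 2988 to 4003 CPM and 2921 to 4413 CPM. All 4 lists overlapped between these groups. Their part in the values of the complement genes was not tested.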

How the data were processed

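The authors sequenced ribosome-depleted, stranded total RNA of CD11b+ cells. Their reads were aligned to GRCm39 by STAR and quantified by RSEM, and the values the authors deposited are unscaled expected counts per gene. Expected counts were rounded here, and libraries of the same animal were summed. Of 56691 genes, 56017 matched GENCODE release M39. The 9 members and all lists were chosen with earlier results of these data known. Each comparison was fitted with edgeR 4.0.16 in R 4.3.3 (TMM, filterByExpr, quasi-likelihood F test, Benjamini-Hochberg over all genes tested, threshold 0.05). SE was derived from the F statistic. DESeq2 1.42.0 and edgeR's exact test were alternatives, with other scaling, filters, covariates and litters and each animal left out in turn. Log2 CPM used a prior count of 2. Counting error alone limits a level to 3 counts. The fit was tested on simulated counts with known changes.

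Named were the members, C4a, other complement genes called in a comparison (at most the 5 with the smallest adjusted p), the 3 with the largest change at a mean of 1 CPM or more, the 3 most abundant markers of each list, and the 5 genes most like C4b, C3 and C1qa over P14 animals. Some genes that this rule names are not reported here. Repeated libraries of an animal differed less (mean chi-square per gene 5.61 and 9.94) than libraries of different HIE animals (28.1 to 94.1).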

Additional observations from a re-analysis of the deposited data

Results flagged for a closer look

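The level of C4b in P14 HIE held 1 animal far from the other 3. P4H1-6F was at 43.1 CPM and the others at 34.1 to 35.4 CPM, a gap of 0.857 of the range, past Dixon's limit for 4 animals. Of 45 groups of values examined, this was the only 1 past the limit, and chance alone would pass about 1 in 20. The animal has 2 libraries, and without it the log2 fold change of C4b was -0.63.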

How the results depend on the processing

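Of 344 fold changes of members refitted with 1 animal left out, 316 kept their direction and side of the threshold, 13 lost the call, 5 gained one and 10 changed sign. Of 370 under other settings, 330, 0, 19 and 21 did so. Each fold change is in 1 class only. The day change of C4b in controls lost its call with the P6H55 controls alone, but it also changed sign and counts there. Counts of members called with 1 animal left out ranged from 0 to 2 between P7 HIE and controls, from 0 to 5 between P14 and P7 controls and from 1 to 2 between P14 and P7 HIE, and those of all genes from 10 to 5588 between P7 HIE and controls, 0 to 6 between P14 HIE and controls, 1 to 7 between Hypoxia and controls, 1 to 3 between HIE and Hypoxia, and 0 to 1200 for the difference of the HIE effects. Among fold changes near 0, C1qc ran from -0.017 to 0.21 and C5ar1 from -0.078 to 0.18 between P14 HIE and controls, C1qa from -0.051 to 0.16 between Hypoxia and controls, C4b from -0.13 to 0.17 between HIE and Hypoxia, and C5ar1 from -0.75 to 0.18 between P14 and P7 controls.

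With the microglia score as a covariate the P7 HIE changes were -0.062 for C1qa, -0.005 for C1qc, 0.16 for C4b, -0.11 for Itgam and -0.39 for Itgb2, those of P14 HIE -0.057 (C1qa), -0.14 (C1qb), -0.17 (C1qc) and -0.063 (C5ar1), and that of C1qa in Hypoxia -0.05. Against P6H55 controls alone the P7 HIE changes were 0.002 for C4b and -0.046 for Itgb2, the day changes in controls -0.014 for C1qc and 0.12 for C4b, and the difference of effects -0.56 for C4b. Against P6H63 controls alone the day changes in controls were 1.19 for C3ar1 and 1.28 for C5ar1. C4b between HIE and Hypoxia was -0.027 with library size only and -0.072 in P6H animals. With P6H7 animals alone C3 was -0.39, and with P6H9 animals alone C1qa was -0.11 (both chosen after the data were seen).

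With P6H63 controls alone 9 members were called between P7 HIE and controls, 8 between the days in controls and 8 for the difference of effects. DESeq2 and edgeR's exact test each called 1 member in P14 HIE, and the P6H7 animals alone, which are 2 littermates, gave 1 in Hypoxia. All genes called between P7 HIE and controls numbered 3024 with DESeq2, 1311 with the exact test, 26 with P6H55 and 13904 with P6H63 controls alone. Between P14 HIE and controls they numbered 490 with DESeq2, 236 with the exact test, 3 without a filter, 2 with library size only, 2 with the name prefix as a block and 0 in 1 fit of 12 animals. In Hypoxia they numbered 164 with DESeq2, 62 with the exact test, 5 with the bias-adjusted fit, 774 with P6H7 and 16 with P6H9 animals alone, 1 with the microglia score or sex as a covariate, and 0 in P6H animals or in 1 fit. Between HIE and Hypoxia they numbered 15 with DESeq2, 17 with the exact test, 5 without a filter, 1 with sex and 0 in 1 fit. For the difference of effects they numbered 674 with DESeq2, 7771 with P6H63 controls, and 0 with P6H55 controls or library size only. No paired analysis was possible because replicate numbers were given in accession order and pair no animals. Where no value shows it, the cause was not tested.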
